A study of Mus musculus with 12 samples.

Results

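The 10 genes described here are the immediate-early transcription factor genes of the AP-1 and Egr families and their relative Atf3, followed over sorted mouse mammary cells. They were listed by name (Fos, Fosb, Fosl1, Jun, Junb, Jund, Egr1, Egr2, Egr3 and Atf3). The rule that lists them uses no measured value, but the list was drawn up with earlier results of these data known. All 10 were measured, each by 1 probeset of its own, among 19938 genes on the array. Levels are log2 values, so a difference of 1 is a doubling of the array signal.

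RNA of sorted mammary cells was measured on 12 arrays in 4 groups of 3. Wnt4-deleted females (MMTV::Cre+.Wnt4fl/fl.mT/mG) gave CD24 high cells on arrays 4, 12 and 16 and CD24 low cells on arrays 3, 11 and 15. WT females (MMTV::Cre+.Wnt4wt/wt.mT/mG) gave CD24 high cells on arrays 2, 10 and 14 and CD24 low cells on arrays 1, 9 and 13. Arrays carry the number of their title, and the numbers form 3 sets with an array of every group in each (1 to 4, 9 to 12 and 13 to 16). Mice of both genotypes were 10 to 14 weeks old and carried Cre under the MMTV promoter, which is active in mammary epithelium, and the mT/mG reporter, which turns cells green once Cre has acted. Lineage-negative green cells were sorted, and the labels call CD24 high cells luminal and CD24 low cells myoepithelial. The notes speak of glands in one place and of grafts in another, and the source was not settled. Nothing in the labels ties an array to an animal, so the p-values below measure the spread between these arrays.

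Immediate-early genes are transcribed within minutes of a stimulus, from factors already present in the cell, and their messages decay quickly. Fos and Jun proteins pair as AP-1, which binds the site TGACTCA, whereas Egr proteins are zinc finger factors that bind GC-rich sites such as GCGTGGGCG. Growth factors and hormones induce these genes, and so do enzymatic digestion of tissue and sorting of the cells, through which every sample here had passed. No undigested tissue was analysed here, so levels before and after digestion cannot be told apart.

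Promoters of 3 members are shown because Egr2 carried the largest difference between the fractions, while Fos and Jun varied with the set of arrays. They are the 250 bases before an annotated start, from RefSeq (GRCm38.p6), where 7 of the 10 members had an entry. Egr1, Egr3 and Fosl1 were not among them. Capitals mark a CArG box, the binding site of serum response factor, and TGACG on either strand (CGTCA where it lies on the other), the core of a CREB or ATF site, in Egr2 (chr10:67537619-67537868, plus strand). In Fos (chr12:85473640-85473889, plus strand) they mark TGACG, and in Jun (chr4:95052223-95052472, minus strand) TGACATCA, a variant of the AP-1 and ATF site. In the Egr2 region neither motif overlaps the other.
Egr2: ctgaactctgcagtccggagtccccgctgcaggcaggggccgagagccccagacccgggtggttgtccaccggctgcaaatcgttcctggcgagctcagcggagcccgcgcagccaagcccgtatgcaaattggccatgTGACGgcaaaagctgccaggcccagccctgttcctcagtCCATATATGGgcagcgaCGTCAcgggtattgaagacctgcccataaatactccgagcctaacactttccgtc
Fos: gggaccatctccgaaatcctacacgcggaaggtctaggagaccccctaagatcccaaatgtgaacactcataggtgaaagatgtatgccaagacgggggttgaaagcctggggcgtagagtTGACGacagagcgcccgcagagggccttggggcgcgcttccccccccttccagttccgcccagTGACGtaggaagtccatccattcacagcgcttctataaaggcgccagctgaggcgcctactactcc
Jun: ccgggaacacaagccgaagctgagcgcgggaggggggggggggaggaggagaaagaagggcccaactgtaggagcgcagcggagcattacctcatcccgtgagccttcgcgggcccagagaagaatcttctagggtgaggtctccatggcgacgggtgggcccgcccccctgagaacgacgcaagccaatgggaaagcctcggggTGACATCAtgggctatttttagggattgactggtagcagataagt

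The CArG box of Egr2 lay 72 to 63 bases before this start. Searched on both strands over the 250 bases before every annotated start, a CArG box was found in 1.47% of 32851 promoters. Among the 7 members only Egr2 had one. Sequence beyond these 250 bases, and the promoters of Egr1, Egr3 and Fosl1, were not searched. TGACG was found in 17.8% of all promoters and in 5 of the 7 members. The 7 members had 11 windows, 5 of them of Egr2, and a member counted if any window matched. Shares over all promoters count single windows, so they are not in the same unit. Not every Egr2 window held both a CArG box and TGACG, and the first that did is shown. TGACG stood at 129 and 66 bases before the Fos start, and at 111 and 55 before the Egr2 start shown. TGACATCA occurred in 2.93% of all promoters and, of the members, in Jun alone, 45 bases before its start. GCGGGGGCG, a variant Egr site, was in 2.57% of promoters and in Fosb. TGACTCA (4.46% of all promoters) and GCGTGGGCG (0.536%) were in none of the members' windows. These matches are descriptions of sequence and no binding was measured.

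As a check of the labels, Wnt4, the deleted gene, was at 6.11, 6.46 and 6.78 in Wnt4-deleted CD24 high cells, against 7.42, 7.92 and 7.62 in WT CD24 high cells. The change was -1.20 ± 0.19 (SE, 95% interval -1.63 to -0.78), with a limma adjusted p of 0.416 over all genes. In CD24 low cells Wnt4 averaged 6.38 in Wnt4-deleted and 6.53 in WT samples, with overlapping arrays. The sort followed the labels: the mean of 18 luminal markers lay between 10.13 and 10.69 on the CD24 high arrays and between 7.59 and 8.02 on the CD24 low arrays. The mean of 20 myoepithelial markers lay between 6.17 and 6.83 on CD24 high and between 10.20 and 10.76 on CD24 low arrays. CD24 low arrays also held signal of other cell types, and arrays 1 and 3 stood apart there. Skeletal muscle markers (10 genes) averaged 6.84 on array 1 and 7.68 on array 3, against 5.26 to 5.57 on the other 4 CD24 low arrays and 5.06 to 5.29 on the CD24 high arrays. Endothelial markers (10 genes) averaged 6.48 and 6.58 on arrays 3 and 1, against 8.10 to 9.27 on the other CD24 low arrays and 5.14 to 6.42 on the CD24 high arrays. Fibroblast markers were highest on arrays 9 (8.95) and 11 (8.54). Fewer cells of a type and less RNA per cell cannot be told apart in such sorted bulk samples.

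All members lay above the median of the array in both fractions: the lowest value of any member was that of Egr3 on array 4 (7.58), and the medians over all genes lay between 5.94 and 6.06. Atf3, a stress-induced partner of Jun proteins, moved least over the 12 arrays, between 11.66 and 12.41, and Jund, the least inducible Jun gene, moved between 10.06 and 10.90. Egr2 spanned the widest range, from 7.96 on array 2 to 11.81 on array 9. Egr3 followed with 7.58 to 9.66, whereas the other members each spanned between 1.12 and 1.52 on the log2 scale.

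**Figure D1:**
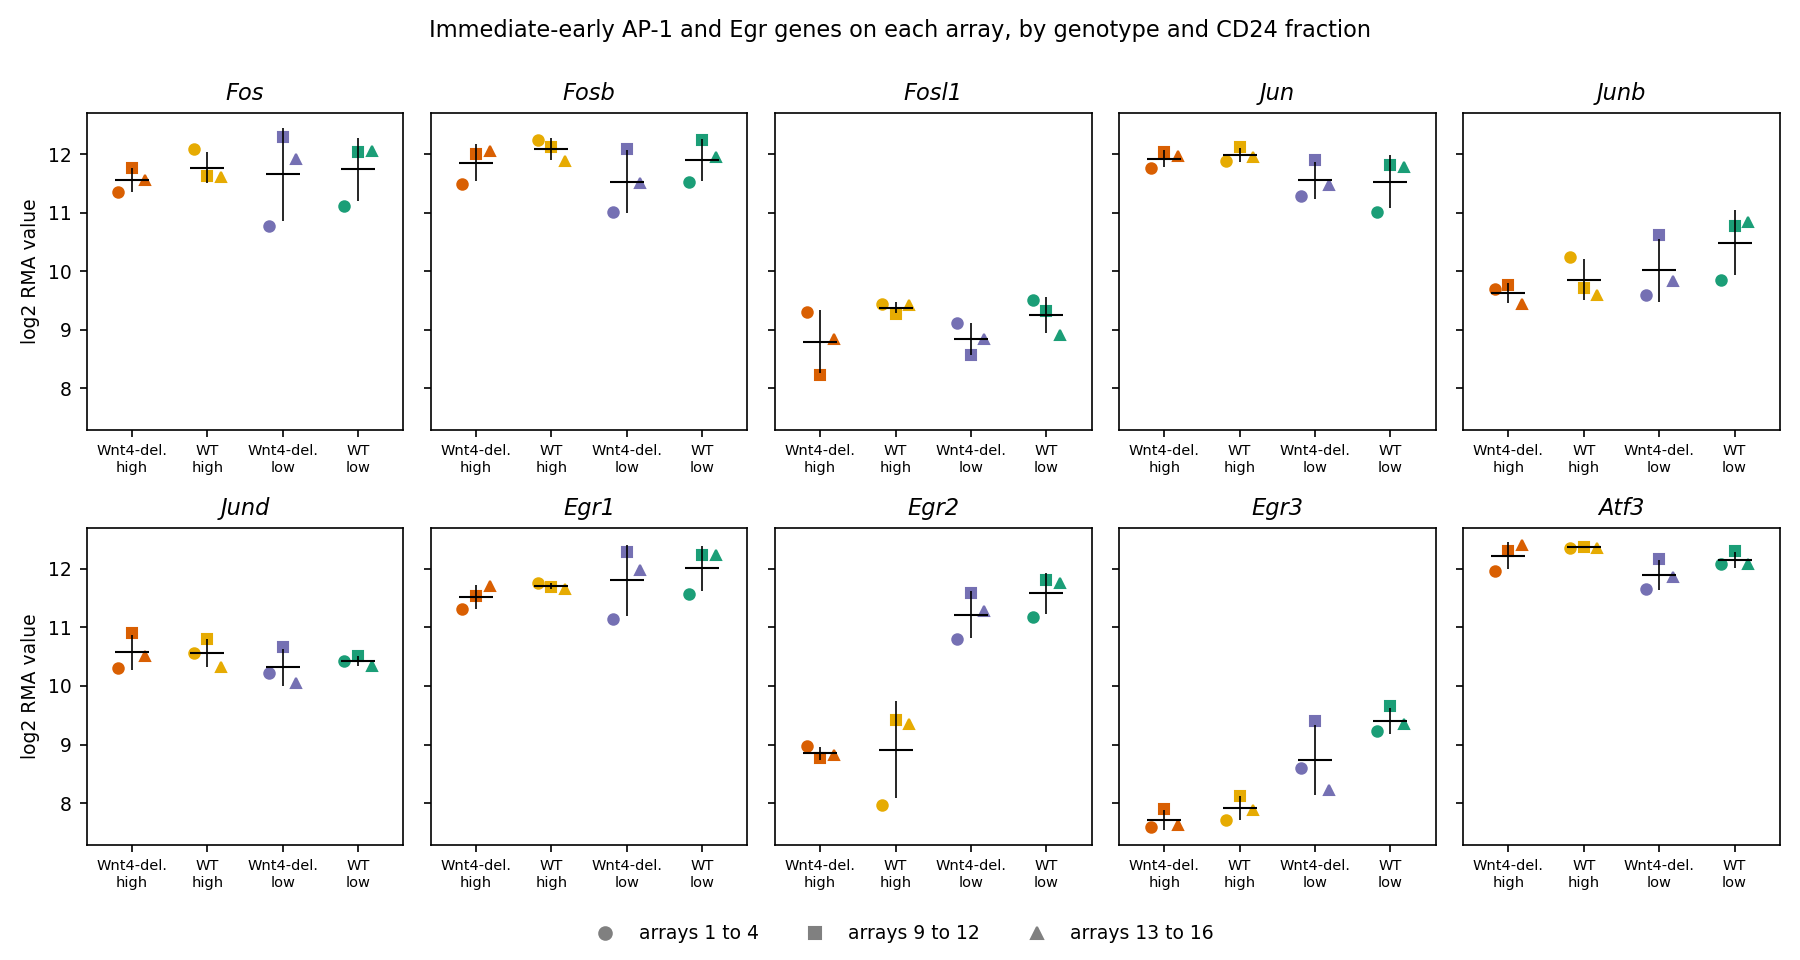
log2 RMA values of the 10 members (vertical axis, the same in all panels) on the 12 arrays, grouped by genotype and CD24 fraction; symbols mark the set of arrays, and black bars show the group mean and SD (n = 3). Egr2 and Egr3 separate the CD24 high from the CD24 low arrays, and in the CD24 low groups the circles (arrays 1 and 3) are the lowest for Fos, Fosb, Jun, Junb, Egr1 and Egr2.

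The first question was which members distinguished the CD24 high from the CD24 low cells. Egr2 and Egr3 were lower in CD24 high cells in both genotypes, and none of the other 8 members passed the test in either. Thus 0 of 10 members were called higher and 2 of 10 lower in each genotype, where 8.23% of all genes were called higher and 8.22% lower in Wnt4-deleted mice, and 7.93% higher and 8.21% lower in WT. Egr2, known as a driver of myelination, stood at 8.97, 8.76 and 8.82 on the Wnt4-deleted CD24 high arrays 4, 12 and 16, against 10.80, 11.59 and 11.28 on the Wnt4-deleted CD24 low arrays 3, 11 and 15. All CD24 high arrays lay below all CD24 low arrays. The change was -2.37 ± 0.35 (SE, 95% interval -3.15 to -1.59), a 5.16-fold lower signal (limma adjusted p = 0.000824). In WT mice Egr2 stood at 7.96, 9.42 and 9.36 in CD24 high cells, against 11.17, 11.81 and 11.76 in CD24 low cells, again with no overlap. The change was -2.67 ± 0.35 (95% interval -3.45 to -1.89), 6.37-fold lower (limma adjusted p = 0.000369). Array 2 held the lowest Egr2 value of all, and without it the WT change was -2.19 (adjusted p = 0.000239).

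Egr3, which is induced together with Egr1 and Egr2 by growth factors and antigen receptors, showed the same direction at a smaller size. In Wnt4-deleted mice the CD24 high values were 7.58, 7.90 and 7.63, against 8.59, 9.39 and 8.22 in CD24 low cells, with no overlap, a change of -1.03 ± 0.26 or 2.04-fold lower (limma adjusted p = 0.0178). This call was lost without array 4 (adjusted p = 0.0582) or without array 16 (0.0651), both Wnt4-deleted CD24 high, and in a fit on the compared groups alone (0.0805), which called 11.2% of all genes. Its WT CD24 high values were 7.72, 8.13 and 7.89, against 9.22, 9.66 and 9.34 in WT CD24 low cells, a change of -1.50 ± 0.26 or 2.82-fold lower (limma adjusted p = 0.00206). By group mean, Egr2 and Egr3 alike were lowest in Wnt4-deleted CD24 high cells, followed by WT CD24 high, Wnt4-deleted CD24 low and WT CD24 low cells. The fractions differed beyond the spread within each genotype, while the genotypes overlapped within each fraction.

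Egr1, the most widely induced Egr gene, was high in both fractions. In Wnt4-deleted mice it stood at 11.31, 11.53 and 11.72 in CD24 high cells, against 11.14, 12.30 and 11.97 in CD24 low cells. It stood at 11.76, 11.69 and 11.66 in WT CD24 high cells, against 11.57, 12.23 and 12.23 in WT CD24 low cells. Of the CD24 low arrays 3 and 1 lay below the CD24 high arrays of their genotype and the others above, and the changes were -0.28 ± 0.27 in Wnt4-deleted mice and -0.30 ± 0.27 in WT (limma adjusted p = 0.578 and 0.569). Without arrays 1 and 3, a choice made after seeing the data, the changes were -0.62 (adjusted p = 0.0228) and -0.53 (adjusted p = 0.0492). Over all genes 17.9% were then called in Wnt4-deleted mice and 15.2% in WT.

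Junb, a Jun protein that restrains c-Jun at many promoters, had its lowest CD24 low value of each genotype on arrays 3 and 1, although array 15 (9.82) lay just below array 1 (9.84). In Wnt4-deleted mice it was at 9.69, 9.76 and 9.44 in CD24 high cells, against 9.60, 10.61 and 9.82 in CD24 low cells (-0.38 ± 0.31, limma adjusted p = 0.493). WT CD24 high cells gave 10.25, 9.70 and 9.59, against 9.84, 10.77 and 10.84 in WT CD24 low cells, a change of -0.63 ± 0.31 (adjusted p = 0.230). The WT change was -0.95 without arrays 1 and 3 (adjusted p = 0.0356) and -0.87 with arrays weighted by their quality (adjusted p = 0.0205), a setting that called 26.2% of all genes.

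Jun, the main DNA-binding partner of Fos, had changes above 0. Its values were 11.76, 12.03 and 11.97 in Wnt4-deleted CD24 high cells, against 11.28, 11.90 and 11.48 in Wnt4-deleted CD24 low cells. In WT they were 11.88, 12.12 and 11.96 in CD24 high cells, against 11.002, 11.81 and 11.77 in CD24 low cells. The WT groups did not overlap, yet the changes of 0.37 ± 0.22 in Wnt4-deleted mice and 0.46 ± 0.22 in WT missed the threshold (limma adjusted p = 0.330 and 0.222). Without arrays 1 and 3 they were 0.23 and 0.19. Atf3 likewise was higher on every WT CD24 high array (12.36, 12.38 and 12.36) than on the WT CD24 low arrays (12.08, 12.31 and 12.08), by 0.21 ± 0.16 (adjusted p = 0.474). In Wnt4-deleted mice its difference was 0.33 ± 0.16, with overlap (adjusted p = 0.197).

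The Fos genes showed no fraction difference beyond their spread. Fos, the prototype of the family, stood at 11.35, 11.77 and 11.56 in Wnt4-deleted CD24 high cells, against 10.76, 12.28 and 11.91 in Wnt4-deleted CD24 low cells. It stood at 12.08, 11.62 and 11.60 in WT CD24 high cells, against 11.12, 12.04 and 12.05 in WT CD24 low cells. The 95% interval of its change ran from -0.89 to 0.70 in Wnt4-deleted mice and from -0.77 to 0.83 in WT, so a change of 1 in either direction lay outside both. Fosb, whose splice form deltaFosB is long-lived, Fosl1, encoding Fra-1, which lacks a transactivation domain, and Jund changed by 0.32 ± 0.27, -0.047 ± 0.25 and 0.26 ± 0.19 in Wnt4-deleted mice, none past the threshold. In WT, Fosb averaged 12.08 ± 0.18 in CD24 high and 11.90 ± 0.36 in CD24 low cells (SD, n = 3 each). Fosl1 averaged 9.38 ± 0.090 in WT CD24 high and 9.24 ± 0.31 in WT CD24 low cells. Jund averaged 10.56 ± 0.24 in WT CD24 high and 10.43 ± 0.087 in WT CD24 low cells.

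The median change of the members was -0.071 in Wnt4-deleted mice and 0.083 in WT, beside 0.0066 and 0.023 over all genes. Arrays did not overlap for 2 members, both lower, in Wnt4-deleted mice (29.3% of all genes had no overlap), and for 4 members in WT, 2 higher and 2 lower (32.8% of all genes). Endothelial markers differed in the same contrast: in WT 4 of 10 were called lower in CD24 high cells, where 8.21% of all genes were. Of the immune markers 1 of 9 was called lower, near that share, and none of the fibroblast, skeletal muscle, pericyte or adipocyte markers. Calls of markers were counted in WT alone. The median change of the endothelial markers was -2.495 in Wnt4-deleted mice and -2.07 in WT. The part of other cells in the Egr2 and Egr3 values was not tested. Arrays 3 and 1, which had the lowest endothelial means among the CD24 low arrays (6.48 and 6.58), also had the lowest Egr2 values among them (10.80 and 11.17, against 11.28 to 11.81). Egr3 did not share this order. Its lowest CD24 low value was on array 15 (8.22), where the endothelial mean was 8.91, and it stood at 9.22 on array 1.

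**Figure D2:**
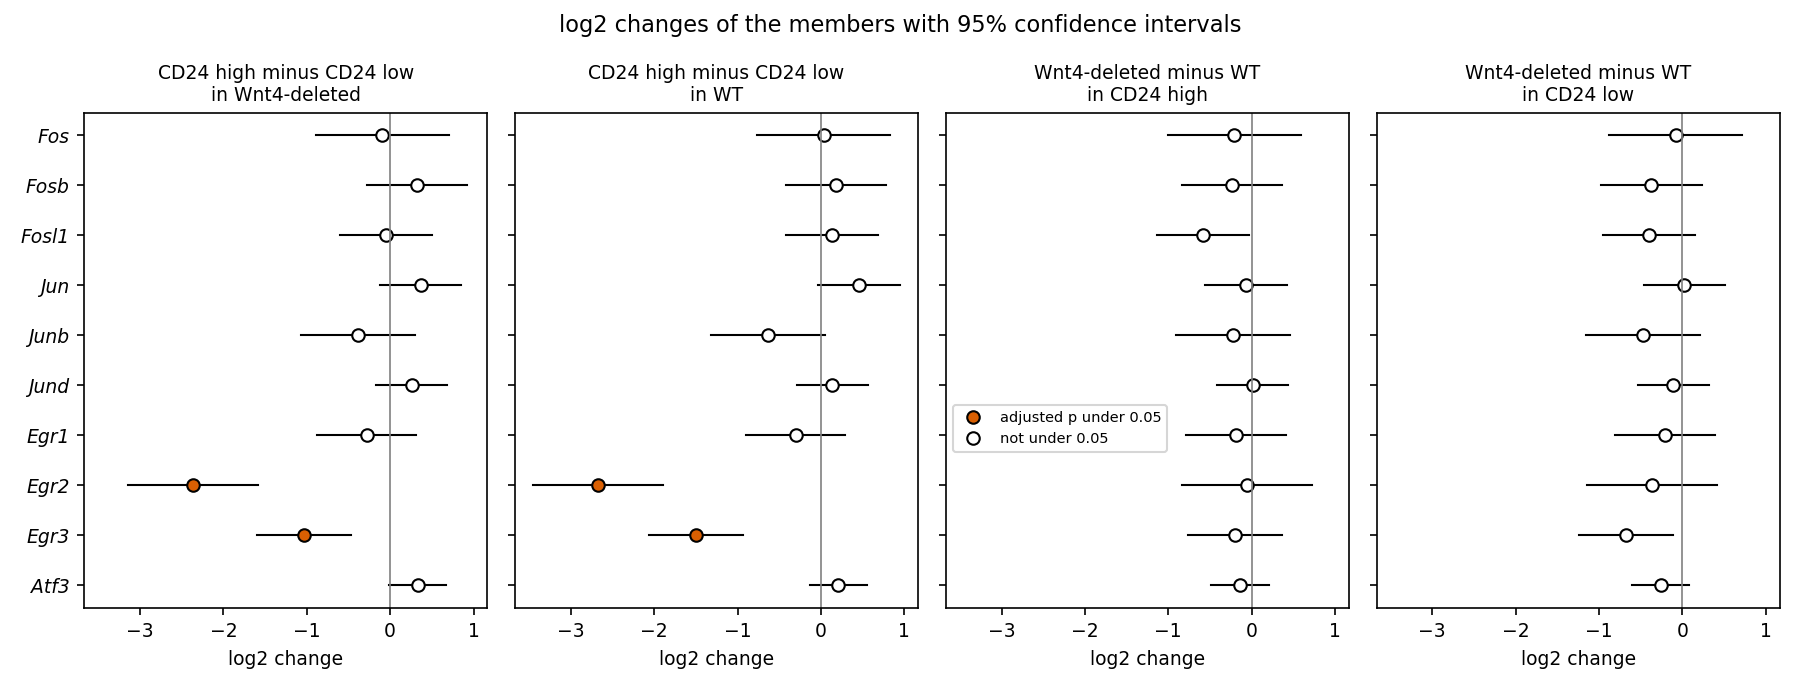
log2 change (horizontal axis) of each member in 4 comparisons, with 95% confidence intervals from the limma fit on 12 arrays (n = 3 per group); filled points passed an adjusted p of 0.05. Egr2 and Egr3 alone pass, in both comparisons of fractions, and no member passes in a comparison of genotypes.

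Next, the effect of Wnt4 deletion on the members was compared within each fraction. No member was called in either fraction, and every adjusted p was 0.9998 or above. Over all genes 1 of 19938 was called in each fraction (0.00502%). The smallest unadjusted p among the members in CD24 low cells was that of Egr3, at 8.59, 9.39 and 8.22 in Wnt4-deleted and 9.22, 9.66 and 9.34 in WT cells, a change of -0.67 ± 0.26 (95% interval -1.24 to -0.11). In CD24 high cells it was that of Fosl1, at 9.30, 8.23 and 8.85 in Wnt4-deleted and 9.44, 9.27 and 9.42 in WT cells, a change of -0.58 ± 0.25 (95% interval -1.14 to -0.030). In both cases the groups overlapped, and no member's arrays separated by genotype, where those of 7% of all genes did in CD24 high and of 6.77% in CD24 low cells. In each fraction 1 member of 10 had an unadjusted p under 0.05, beside 1.99% of all genes in CD24 high and 3.06% in CD24 low cells.

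The other changes by genotype were small. In CD24 high cells they lay between -0.23 (Fosb) and 0.014 (Jund), and in CD24 low cells between -0.47 (Junb) and 0.022 (Jun), with SE between 0.16 and 0.36. In each fraction 9 of 10 members had a value below 0, where 56.6% of all genes did so in CD24 high and 54.6% in CD24 low cells. The members' median was -0.20 in CD24 high and -0.31 in CD24 low cells, beside -0.026 and -0.019 over all genes. These genes share the arrays, so the 9 values of a fraction are not separate observations. Most members varied together on the CD24 low arrays, and fewer did on the CD24 high arrays. By set, the median of the members was -0.32, -0.10 and -0.015 in CD24 high cells and -0.39, -0.14 and -0.29 in CD24 low cells (arrays 1 to 4, 9 to 12 and 13 to 16). In CD24 low cells 6 of 10 members (Fosb, Fosl1, Junb, Egr2, Egr3 and Atf3) were lower in Wnt4-deleted than in WT cells in all 3 sets, where 13.8% of all genes were. In CD24 high cells 2 of 10 (Fosl1 and Egr3) were, where 12.2% of all genes were.

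The deletion effect was also compared between the fractions, as the difference CD24 low minus CD24 high. No member and no gene (0%) passed, and an unadjusted p under 0.05 was reached by 0 members and 1.37% of all genes. The member farthest from 0 was Egr3 (-0.47 ± 0.36), with a 95% interval of -1.26 to 0.33. For Egr2 it was -0.30 ± 0.50, with an interval of -1.40 to 0.80.

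Several members changed sign between the sets of arrays. CD24 high minus CD24 low for Fos was 0.58 in Wnt4-deleted mice and 0.96 in WT on arrays 1 to 4, but -0.52 and -0.42 on arrays 9 to 12 and -0.35 and -0.45 on arrays 13 to 16. Junb gave 0.093 in Wnt4-deleted mice and 0.40 in WT on arrays 1 to 4, but -0.85 and -1.06 on arrays 9 to 12 and -0.39 and -1.25 on arrays 13 to 16. Egr1 gave 0.17 and 0.20 on arrays 1 to 4 and between -0.76 and -0.26 on the others. Thus Fos, Junb and Egr1 had higher values in CD24 high cells in the first set in both genotypes and lower values in the other sets. Egr2 (-3.21 to -1.82) and Egr3 (-1.53 to -0.59) were lower in all 3 sets in both genotypes, and Jun (0.13 to 0.88) and Atf3 (0.066 to 0.55) had values above 0 in all 3.

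**Figure D3:**
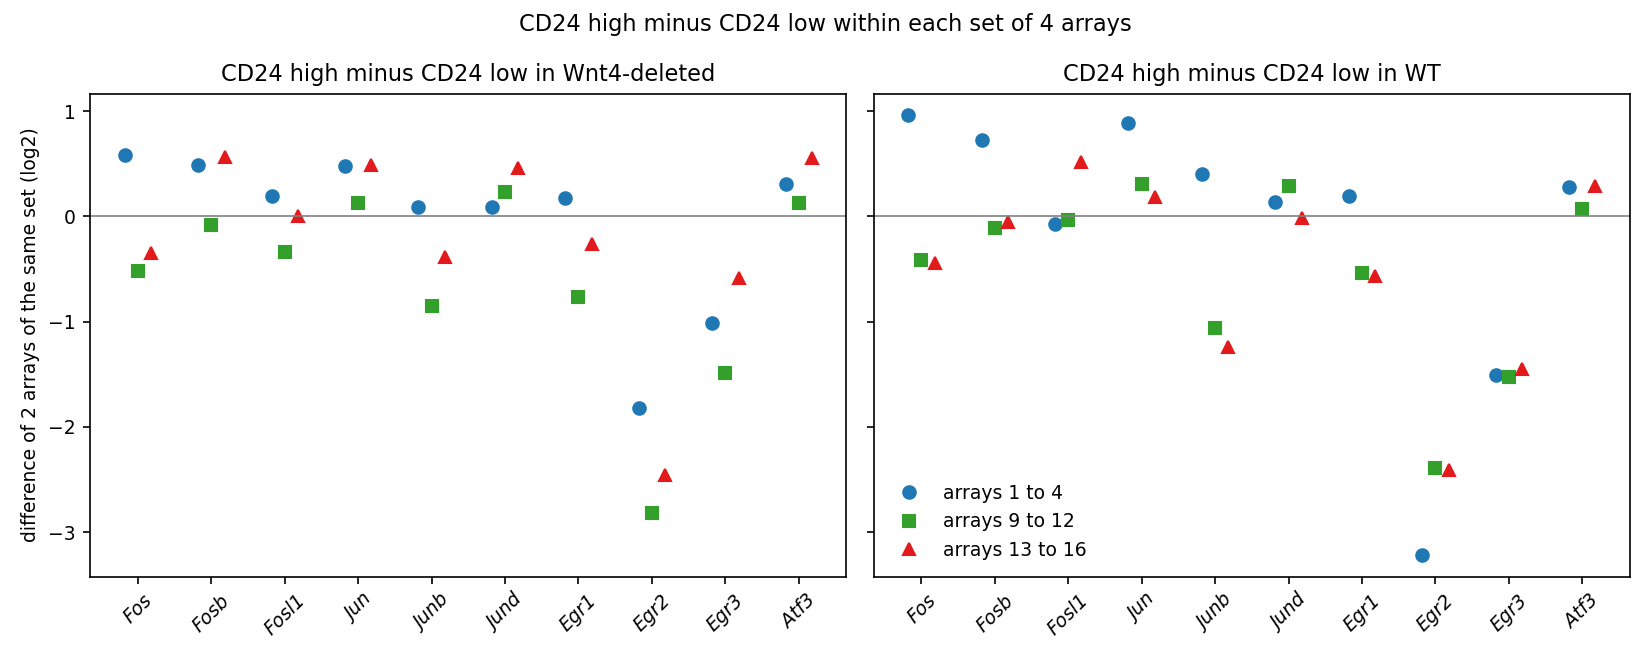
Difference of the CD24 high and the CD24 low array of the same set (log2, vertical axis) for each member, in Wnt4-deleted (left) and WT mice (right); each point is 1 array minus 1 array, so it has no error. Circles (arrays 1 to 4) lie above 0 for Fos, Junb and Egr1 while squares and triangles lie below, and all symbols of Egr2 and Egr3 lie below 0.

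On the CD24 high side array 2 had the highest WT values of Fos (12.08, against 11.62 and 11.60) and Junb (10.25, against 9.70 and 9.59). Array 4 had the lowest Fos value of Wnt4-deleted CD24 high cells (11.35) and a middle value of Junb (9.69). On the CD24 low side the sets differed through arrays 1 and 3. Fos was at 11.12 and 10.76 there, against 11.91 to 12.28 on the other 4 CD24 low arrays. Egr1 was at 11.57 and 11.14, against 11.97 to 12.30, Jun at 11.002 and 11.28, against 11.48 to 11.90, and Egr2 at 11.17 and 10.80, against 11.28 to 11.81. Thus 4 of 10 members lay below all other CD24 low arrays on both, 0 lay above and 6 overlapped, where 11.9% of all genes lay below and 15.9% above. Fosl1 had the opposite sign, at 9.51 and 9.11, against 8.57 to 9.31, with overlap. Arrays 1 and 3 are also those with skeletal muscle transcripts and the lowest endothelial marker levels among CD24 low arrays: 8 of 10 skeletal muscle markers lay above and 10 of 10 endothelial markers below the other 4, with 5 of 9 immune, 4 of 7 pericyte, 3 of 9 fibroblast and 1 of 7 adipocyte markers below. Epithelial markers shifted too: 10 of 20 myoepithelial and 7 of 18 luminal markers lay above the other 4 arrays, and the myoepithelial mean was 10.71 to 10.76, against 10.20 to 10.49. Their part in the members' values was not tested.

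To describe how the members varied together, each value was taken as its deviation from the mean of its group, and these deviations were averaged over the members of an array. The average was -0.34 on array 3 and -0.30 on array 1, and 0.40 on array 11 and 0.22 on array 9. On the 6 CD24 high arrays it stayed between -0.089 and 0.073. The deviations of Jun (Pearson r = 0.91), Fosb (0.90), Egr1 (0.88) and Fos (0.80) were most like the mean of the other 9 members over the 12 arrays. Fosl1 ran against them (-0.67). On the 6 CD24 low arrays Egr2 (0.95), Junb (0.93) and Fos (0.89) followed the other members. On the 6 CD24 high arrays Egr2 (-0.57), Junb (-0.49) and Fos (-0.055) did not. All these values rest on the same 12 arrays and are given as a description.

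**Figure D4:**
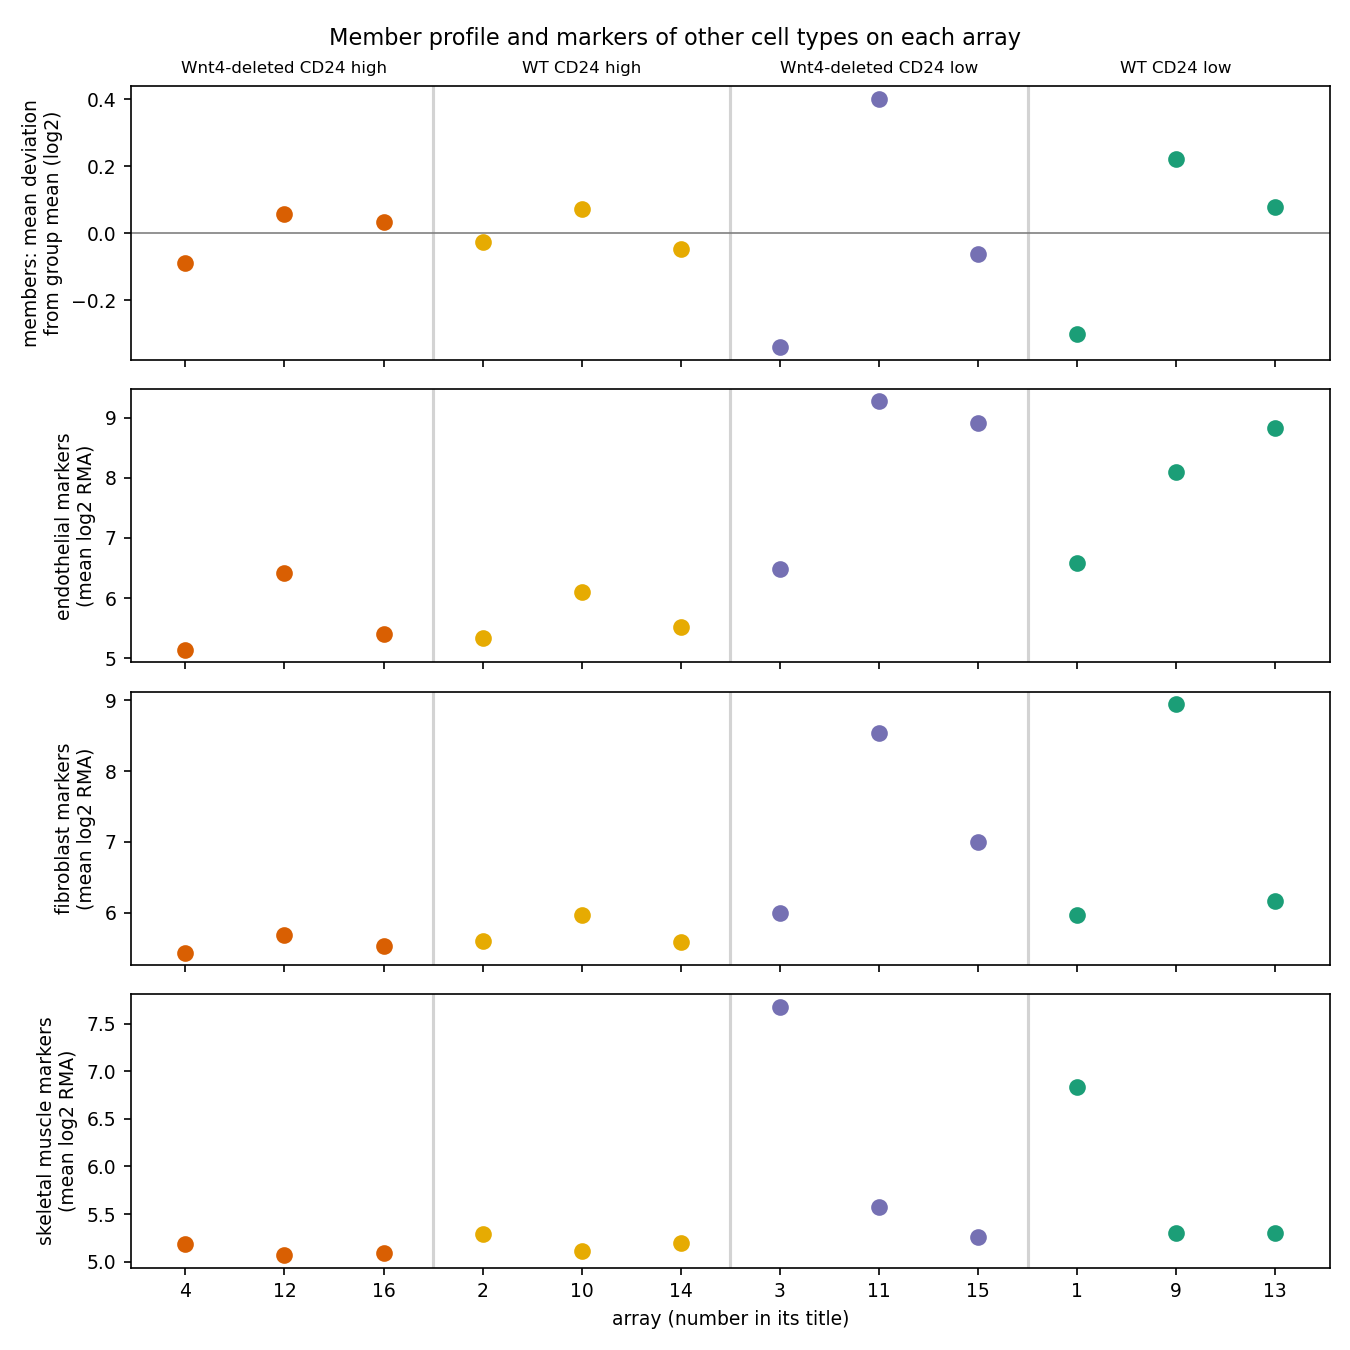
Mean deviation of the 10 members from their group mean (top) and mean log2 RMA value of 10 endothelial, 9 fibroblast and 10 skeletal muscle markers on each of the 12 arrays. Arrays 3 and 1 have the lowest member deviation and the highest skeletal muscle level, and arrays 11 and 9 have the highest member deviation and the highest fibroblast level.

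Among 3691 other genes whose deviations had an SD of at least 0.3, 8 were named as most like the members' average. They were Aqp7, Pdgfrb, Fabp9, Agmo, Abcc9, Car4, Enpep and Gm13889, with r between 0.95 (Gm13889) and 0.98 (Aqp7). On the 6 CD24 low arrays their r lay between 0.97 (Abcc9) and 0.99 (Aqp7). On the 6 CD24 high arrays it lay between 0.23 (Enpep) and 0.81 (Aqp7). Pdgfrb, a growth factor receptor, and Abcc9, a potassium channel subunit, are among the 7 pericyte markers, and Aqp7 is a glycerol channel known from adipocytes and capillaries. None of the 8 belonged to the list of other immediate-early genes. Of that list 17 genes varied enough to be ranked, and Zfp36 (0.91), Btg2 (0.89) and Ier2 (0.82) were the 3 above 0.8, where 6.53% of all ranked genes were. Nr4a3 (-0.068), Ptgs2 (-0.19) and Ccn2 (-0.42) lay below 0. Zfp36 encodes a protein that speeds the decay of AU-rich messages, Btg2 is antiproliferative and Ier2 is a small nuclear protein. Pericyte markers averaged 7.36 on array 11 and 6.93 on array 9, against 5.92 on array 3 and 5.71 on array 1.

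Other genes of the same response were read beside the members. Over all genes, 8.23% were called higher and 8.22% lower in CD24 high cells in Wnt4-deleted mice, and 7.93% and 8.21% in WT. No list was tested as a set. Of 40 other immediate-early genes 13 were called lower and 2 higher in CD24 high cells in Wnt4-deleted mice, and 12 lower and 3 higher in WT, with medians of -0.24 and -0.31. The 4 with the smallest p in each genotype were all lower. Arc, which shapes synapses and is an established Egr target in neurons, averaged 7.24 in CD24 high and 9.32 in CD24 low cells of Wnt4-deleted mice, 4.21-fold lower (adjusted p = 7.11e-05). Its WT averages were 7.89 in CD24 high and 9.74 in CD24 low cells (3.61-fold lower, adjusted p = 0.000166). Tiparp, an ADP-ribosyltransferase, changed by -1.23 ± 0.17 in Wnt4-deleted mice and -1.57 ± 0.17 in WT, and Zfp36l1, a relative of Zfp36, by -0.95 ± 0.10 and -0.93 ± 0.10. Gadd45b, a stress sensor, changed by -0.85 in Wnt4-deleted mice and -1.36 ± 0.19 in WT. Ptgs2, encoding the prostaglandin synthase COX-2, changed by -2.33 ± 0.38 in Wnt4-deleted mice (adjusted p = 0.00148), but by -0.35 in WT (adjusted p = 0.664), where it was not called. For Ptgs2, as for every gene, the difference between the genotypes in this change between fractions did not pass its own test.

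Phosphatases and inhibitors in the pathways of ERK and related kinases, which lie upstream of most members, were called in both directions. The list does not separate those that act on ERK itself. Of 15 listed, 3 were called higher and 4 lower in CD24 high cells in Wnt4-deleted mice, and 3 higher and 6 lower in WT. The shares over all genes were 8.23% higher and 8.22% lower in Wnt4-deleted mice, and 7.93% and 8.21% in WT. The phosphatase genes Dusp16 (1.80 ± 0.16 in Wnt4-deleted mice and 1.77 ± 0.16 in WT) and Dusp4 (2.40 ± 0.25 and 1.44 ± 0.25) were higher, and so was Dusp10 (1.81 ± 0.29 in Wnt4-deleted mice and 1.62 in WT). Spred1, which keeps Raf from being activated, was lower (-1.77 ± 0.20 in Wnt4-deleted mice and -1.86 ± 0.20 in WT), and so was Spry1 (-1.34 in Wnt4-deleted mice and -1.47 ± 0.25 in WT). The adjusted p of these calls was at most 0.00366. Of 19 genes upstream of the members 1 was called higher and 4 lower in Wnt4-deleted mice, and 1 higher and 3 lower in WT. Elk3, a ternary complex factor that binds CArG boxes with serum response factor, changed by -1.29 ± 0.33 in Wnt4-deleted mice (adjusted p = 0.0204) and by -1.25 ± 0.33 in WT (adjusted p = 0.0248). Mrtfa, an actin-regulated coactivator of serum response factor, changed by -0.68 ± 0.19 in Wnt4-deleted mice and -0.71 ± 0.19 in WT. The kinase gene Mapk9 was higher in both genotypes (0.55 in Wnt4-deleted mice, adjusted p = 0.0476, and 0.68 ± 0.17 in WT, adjusted p = 0.0181). The kinase genes Rps6ka3 (-0.50 ± 0.13) and Mapk14 (-0.54 ± 0.16) were called lower in Wnt4-deleted CD24 high cells, and their WT values of -0.16 and -0.41 were not called. Elk1 was called in WT (-0.44 ± 0.12) but not in Wnt4-deleted mice (-0.058, adjusted p = 0.833).

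Of 21 partners and relatives of the members 0 were called higher and 2 lower in Wnt4-deleted CD24 high cells, and 1 higher and 4 lower in WT ones. The shares over all genes were 8.23% higher and 8.22% lower in Wnt4-deleted mice, and 7.93% and 8.21% in WT. A count of 2 of 21 lies near these shares. Cebpb, a bZIP factor of the mammary epithelium, changed by -1.48 ± 0.21 in Wnt4-deleted mice and -1.35 ± 0.21 in WT (adjusted p = 0.000655 and 0.00125). Maf, another bZIP factor, changed by -0.97 ± 0.18 and -0.96 ± 0.18. Nfe2l2, the regulator of the oxidative stress response (-1.14 ± 0.30), and Nab1, a corepressor of Egr proteins (0.68 ± 0.20), were called in WT, and their values of -0.85 and 0.35 in Wnt4-deleted mice were not. Of 17 genes known as AP-1 targets 3 were called higher and 1 lower in each genotype. Il6, a cytokine, averaged 5.37 in CD24 high and 9.79 in CD24 low cells in Wnt4-deleted mice (adjusted p = 0.0113), and 5.49 in CD24 high and 9.28 in CD24 low cells in WT (adjusted p = 0.0248). Its arrays spread widely, between 3.71 and 7.53 in Wnt4-deleted CD24 high cells and between 4.42 and 7.29 in WT CD24 high cells. No fold is given, since its CD24 high means lay below the array medians and the table holds no measure of detection. Lif, a cytokine (2.69 ± 0.45 in Wnt4-deleted mice and 2.44 ± 0.45 in WT), Plaur, the urokinase receptor (0.91 ± 0.18 and 1.34 ± 0.18), and Gclc, of glutathione synthesis (1.94 ± 0.34 and 1.26 ± 0.34), were higher in CD24 high cells. Of 13 heat shock genes, which also answer to handling, 1 was called in each direction in Wnt4-deleted mice, and 1 higher and 2 lower in WT. Bag3, a cochaperone, changed by -0.81 ± 0.12 in Wnt4-deleted mice and -0.98 ± 0.12 in WT, and Hspa5, the chaperone of the endoplasmic reticulum, by 0.62 ± 0.17 and 0.59 ± 0.17. Hspb8, the partner of Bag3, changed by -0.16 in Wnt4-deleted mice, which was not called, and by -0.75 ± 0.22 in WT.

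**Figure D5:**
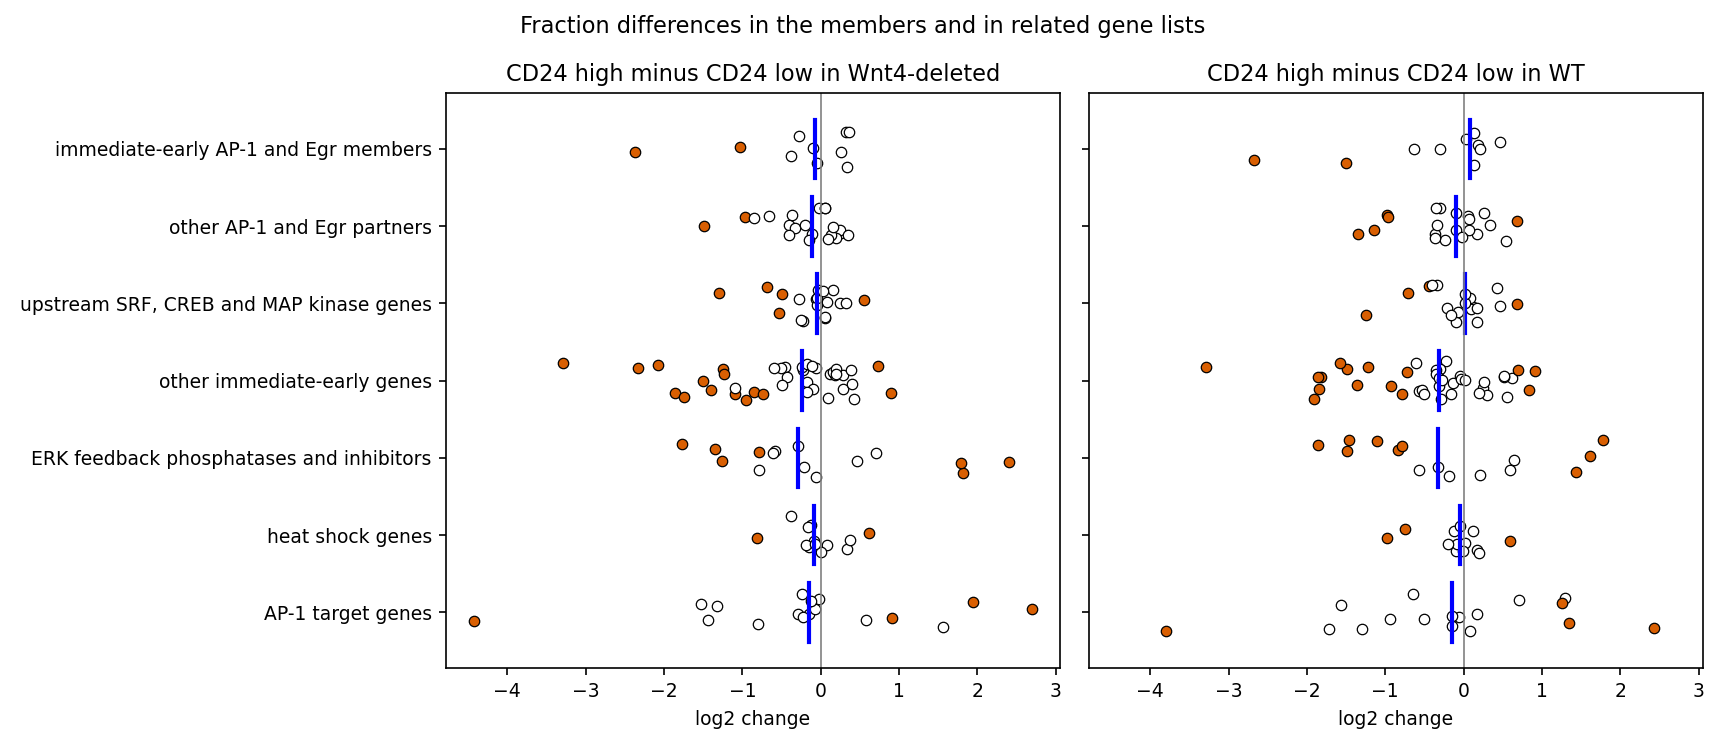
log2 change, CD24 high minus CD24 low (horizontal axis), of every measured gene of 7 lists in Wnt4-deleted (left) and WT mice (right); filled points passed an adjusted p of 0.05, blue bars are list medians, and the vertical scatter has no meaning. The members hold 2 filled points, both below 0. The list labelled ERK feedback phosphatases and inhibitors, some of which act on related kinases, holds filled points on both sides.

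No gene of these lists was called by genotype. The smallest unadjusted p belonged to Ptgs2 in CD24 high cells, at 7.60, 6.49 and 7.52 in Wnt4-deleted and 8.79, 8.02 and 9.18 in WT cells, a change of -1.46 ± 0.38 (limma adjusted p = 1.0). Dusp5 (-0.49 ± 0.15) and Arc (-0.65 ± 0.22) followed in CD24 high cells, and Gadd45b in CD24 low cells (-0.62 ± 0.19). Next in order of p came Rps6ka3 (0.37 ± 0.13), Elk1 (-0.33 ± 0.12), Vegfa (-0.55 ± 0.21) and Egr4 (-0.31 ± 0.12) in CD24 low cells and Dusp4 (0.58 ± 0.25) in CD24 high cells. Egr4, the remaining Egr gene, averaged 6.28 in Wnt4-deleted and 6.59 in WT CD24 low cells.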

How the data were processed

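The deposited table holds log2 values of 12 Affymetrix gene arrays, made by the authors with RMA in Affymetrix Expression Console 1.1.2800 (background correction, quantile normalisation and median polish), with no pooling stated. The log base was taken from the method and the range of the values (1.62 to 13.80). Of 35556 probesets the 21789 with 1 gene symbol in the platform annotation were kept, and 1621 with several and 12146 with none were left out. For the 999 genes with more than 1 probeset, that with the highest mean was used. Group means were compared by lmFit and eBayes of limma 3.58.1, run in R 4.3.3 (all 12 arrays, 8 residual degrees of freedom, 11.0 after moderation), two-sided, with Benjamini-Hochberg adjustment over 19938 genes within each of 5 comparisons and a threshold of 0.05. The model was tested on simulated data with noise drawn separately for each gene and array. Arrays of a set did not deviate together there, so this test cannot show how such shared variation bears on the calls. Arrays have no depth in reads, and precision is limited by how many there are.

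Members and gene lists were chosen with earlier results of these data known. All members are named, and from each other list up to 4 called genes per fraction comparison (smallest p) and up to 2 per genotype comparison. Tables and plots were made in Python 3.11.15. Alternatives were a block for the set of arrays, a filter on dim genes (under the 40th percentile), averaging the probesets of a gene, a robust prior with intensity trend, another quantile normalisation, centring on the median, array weights, the compared groups alone, other thresholds and leaving out each array. Added after seeing the data were fits without arrays 1 and 3 and without arrays 1 to 4.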

Additional observations from a re-analysis of the deposited data

How the results depend on the processing

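Limits: with 3 arrays a group, member changes had standard errors of 0.16 to 0.36, and changes larger than these also went uncalled. Junb, CD24 high minus CD24 low in WT, changed by -0.63 and was not called (limma adjusted p = 0.23). Wnt4, the deleted gene, changed by -1.20 in CD24 high cells, Wnt4-deleted minus WT, and was not called either (limma adjusted p = 0.416). An uncalled change is therefore not evidence that a gene was unchanged. In Wnt4-deleted mice 2 members were called, and 1 (Egr2) in a fit on the compared groups, without arrays 1 to 4 and at a threshold of 0.01, 3 without arrays 1 and 3 (Egr1 added), and 1 to 2 when an array was left out. In WT it was 2, but 4 without arrays 1 to 4 and 4 without arrays 1 and 3, with Egr1 and Junb added, 3 with array weights (Junb added), and 2 whichever array was left out. No member was called by genotype or in the difference under any setting. The set of arrays as a block changed no member's call. Arrays of a set deviated together in Wnt4-deleted cells and across genotypes in CD24 low cells (correlations of 0.18 to 0.70) but not throughout (-0.12 to 0.29 in the other pairs).

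Values of uncalled members changed sign as follows; the cause was not tested. In WT, CD24 high minus CD24 low, Fos was -0.17 with array weights, -0.43 without arrays 1 to 4 and -0.28 without arrays 1 and 3, Fosb -0.087 and -0.0073 in those last 2 fits. In Wnt4-deleted mice Fosl1 was 0.025 after median centring and 0.087 without arrays 1 and 3. By genotype in CD24 low cells Fos was 0.053 in both reduced fits, and Jun -0.10 in both and -0.014 with array weights. In CD24 high cells, without arrays 1 to 4, Fos was 0.052 and Fosb 0.027, and Jund was -0.054 after a second quantile normalisation and -0.034 with array weights. For the difference, Fos was -0.0052 with array weights, Jun -0.064 without arrays 1 to 4 and -0.035 without arrays 1 and 3, Egr1 0.089 without arrays 1 and 3, and Egr2 0.069 with array weights and 0.24 without arrays 1 to 4.

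With single arrays left out, values that changed sign ranged as follows. CD24 high minus CD24 low in WT gave -0.28 to 0.19 for Fos, -0.0073 to 0.35 for Fosb and -0.035 to 0.27 for Fosl1. In Wnt4-deleted mice Fos ranged over -0.54 to 0.22 and Fosl1 over -0.30 to 0.23. The genotype change in CD24 low cells ranged over -0.40 to 0.36 for Fos, -0.24 to 0.16 for Jun, -0.29 to 0.019 for Jund and -0.46 to 0.13 for Egr1. In CD24 high cells it ranged over -0.12 to 0.012 for Jun, -0.15 to 0.14 for Jund and -0.54 to 0.19 for Egr2. The difference ranged over -0.19 to 0.57 for Fos, -0.42 to 0.12 for Fosb, -0.099 to 0.43 for Fosl1, -0.17 to 0.23 for Jun, -0.30 to 0.037 for Jund, -0.27 to 0.31 for Egr1 and -0.56 to 0.17 for Egr2.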
